A study of Mus musculus with 24 samples.

Results

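The effect of a high-fat diet on livers labelled as lacking the nuclear receptor PPARα was examined across all genes, by comparing the 3 libraries of mice fed a high-fat diet with the 3 libraries of mice of the same genotype fed a regular diet. These 6 libraries were taken by their labels from 24 mouse liver libraries, and 10551 of the 34945 named genes were tested. Levels are TPM, a gene's part of all transcripts after a correction for length, and genes averaging under 1 TPM in the 24 libraries were left out. The mice carried loxP-flanked alleles and the Albumin-Cre transgene, which acts in hepatocytes, so the other cells of the liver keep the gene. The knockouts are called LPKO when PPARα was targeted (labelled PPARα-/-), LFKO when FoxO1 was targeted and LFPKO when both were. Floxed mice of genotype FoxO1lox/lox; PPARαlox/lox, with no Cre stated, are called WT. The regular diet (RD) or the high-fat diet (HFD) lasted 3 weeks, and all mice were fasted for 4 h. No source used here gives the diets' composition or the animals' age and sex. Replicates are numbered, but whether each number stands for its own animal is not stated; p-values therefore reflect spread among libraries, which may be technical. In whole liver, fewer cells of a type and less RNA per cell cannot be told apart.

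PPARα binds fatty acids and switches on the genes that import, activate and burn them and that make ketone bodies. Dietary fat and sterols reach other regulators of the hepatocyte too. SREBP-2 drives cholesterol synthesis when sterols are scarce. NRF2, which KEAP1 holds back until electrophiles or oxidants appear, drives glutathione transferases and other protective enzymes through antioxidant response elements. The receptors CAR and PXR drive the cytochromes P450 that clear foreign compounds and bile acids.

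Levels are TPM of replicates 1, 2 and 3 in that order, and means are ± SD with n = 3. Changes are log2 fold changes of HFD against RD ± SE. They were fitted to log2(TPM + 1), and the added 1 makes changes of weakly expressed genes look smaller. A gene was called when its limma adjusted p was under 0.05. The changes were mostly small falls: 82 genes were called higher and 1828 lower, or 0.777% and 17.3% of those tested, and 82.8% of tested genes had a negative change. The median change of all tested genes was -0.22. Dividing each library by a median-of-ratios size factor moved that median to -0.0075 and gave 290 genes higher and 390 lower, 2.75% and 3.7% of those tested, so genes called higher went from 4.29% to 42.6% of those called. Values after this division are called scaled below and stand beside the deposited ones. Both versions shared 76 calls higher and 390 lower. Leaving out 1 library reduced the calls from 1910 to 576 without RD LPKO replicate 1, 838 without RD LPKO replicate 3 and 716 without HFD LPKO replicate 3. A set of 333 genes was called in both versions and, on deposited TPM, with each of the 6 libraries left out in turn. Such a gene is said below to have a stable call. Stable calls were 27 higher and 306 lower, or 0.256% and 2.9% of those tested.

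**Figure D1:**
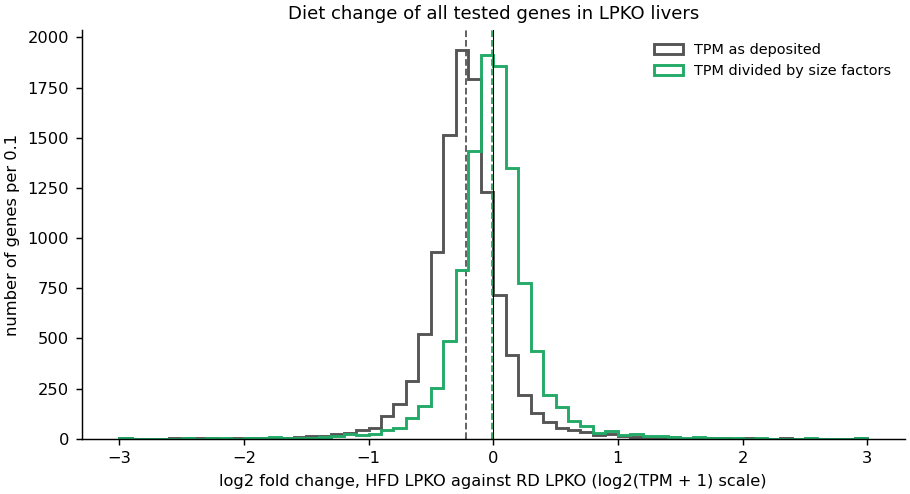
Number of tested genes (y axis, per bin of 0.1) by log2 fold change of HFD LPKO against RD LPKO libraries (x axis, values past -3 or 3 placed in the end bins), for TPM as deposited and after division by size factors. Dashed lines mark the medians, -0.22 and -0.0075.

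Transcripts of the mitochondrial genome took 17.99% ± 0.486 of the TPM in RD LPKO and 21.59% ± 1.44 in HFD LPKO libraries (SD, n = 3, exact two-sided permutation p = 0.1, the smallest that 3 against 3 allows). Genes of major urinary proteins (Mup) took 10.4%, 14.4% and 10.4% in the RD and 13.4%, 12.5% and 26.1% in the HFD libraries, so HFD LPKO replicate 3 stood apart (exact two-sided permutation p = 0.3). Their part in the small falls of other genes was not tested gene by gene; without the Mup genes and the mitochondrial transcripts, 231 genes were called higher and 561 lower. Ppara itself was at 70.1, 64.6 and 63.4 TPM in RD and 84.3, 87.3 and 70.9 TPM in HFD LPKO libraries (0.28 ± 0.14, limma adjusted p = 0.153, scaled 0.53, adjusted p = 0.00927). It was not lower than in WT livers (53.1 ± 4.15 TPM on RD), and because a gene's TPM includes transcripts that lack a deleted exon, it does not check the labels. Levels of 2 PPARα targets, picked after their values were seen and not tested between genotypes, are given beside it. On the regular diet Cyp4a14, a microsomal fatty acid hydroxylase, was at 21.4 ± 15.4 TPM in LPKO and 526 ± 263 TPM in WT livers, and Vnn1, a pantetheinase, at 2.09 ± 0.754 and 40.2 ± 18.3 TPM. Foxo1, which was not targeted here, rose from 4.22, 4.296 and 4.71 to 9.37, 9.94 and 5.53 TPM with a stable call (0.74 ± 0.14, limma adjusted p = 0.00298, scaled 0.95). HFD LPKO replicate 3 was the lowest of its group for Foxo1 and still above all RD libraries.

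Most genes of the NRF2 list fell. Of 14 tested members 12 were called lower and none higher, where 17.3% of all tested genes were called lower and 0.777% higher, and 10 were called lower after scaling, where 3.7% of all genes were. Their median change was -1.56, or -1.31 scaled, and in all 14 the HFD libraries lay below every RD library, as in 39.8% of all tested genes. Promoters of 12 tested members were found in RefSeq (GRCm38.p6, 250 bases before to 50 after a start site). The core of the antioxidant response element, TGACNNNGC on either strand, occurred in 5 of these 12 genes, or 41.7%, and in 14% of 27025 genes. The 5 were Gclm, Me1, Srxn1, Txnrd1 and Ugdh. It was 1 of 10 motifs looked at after the values were seen, and a match describes the letters only. Below are the stretches around the matches (capitals) in 4 of these genes, each called lower on the high-fat diet. They lie on GRCm38.p6 at chr5:65435868-65436034 (minus strand), chr9:86695865-86695980 (minus strand), chr10:82859054-82859182 (plus strand) and chr2:152105492-152105573 (plus strand), and are written 5′ to 3′ on the gene's strand. Me1 has 2 promoters in that table and Txnrd1 has 3, and in each gene 1 of them held the match.
Ugdh: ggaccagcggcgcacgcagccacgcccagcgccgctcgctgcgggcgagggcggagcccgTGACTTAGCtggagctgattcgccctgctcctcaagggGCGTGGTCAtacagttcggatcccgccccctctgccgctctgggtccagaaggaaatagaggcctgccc
Me1: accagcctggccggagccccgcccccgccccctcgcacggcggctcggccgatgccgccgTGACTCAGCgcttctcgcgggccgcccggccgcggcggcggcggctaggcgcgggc
Txnrd1: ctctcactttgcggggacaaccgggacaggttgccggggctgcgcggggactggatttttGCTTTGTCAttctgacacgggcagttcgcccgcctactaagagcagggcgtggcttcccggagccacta
Srxn1: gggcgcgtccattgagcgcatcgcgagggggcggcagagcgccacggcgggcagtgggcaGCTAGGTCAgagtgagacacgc

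The largest falls of the list were in glutathione transferases, which attach glutathione to electrophiles. Gstm3 was at 263, 224 and 246 TPM in RD and 14.2, 28.7 and 10.97 TPM in HFD LPKO libraries, a 13.6-fold lower mean (-3.801 ± 0.31, limma adjusted p = 7.57e-07, scaled -3.56). Gsta2 went from 80.98, 48.4 and 63.5 to 7.37, 11 and 8.21 TPM (-2.71 ± 0.46, limma adjusted p = 0.00118) and Gsta1 from 19.8, 8.95 and 15.9 to 0.8998, 1.42 and 2.03 TPM (-2.66 ± 0.37, limma adjusted p = 3.19e-04). The groups of these 3 genes were far apart, and no single library set the difference. Gstm1, by far the most abundant of them, fell from 2368 ± 266 to 720 ± 130.4 TPM (-1.73 ± 0.28, limma adjusted p = 9.01e-04), and Gstm4 by 1.79 on the log2 scale. Sequences of these families are similar, so the division of reads among their members is uncertain.

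Other members of the NRF2 list carry out different steps. Ephx1, the microsomal epoxide hydrolase, was at 426, 341 and 427 TPM in RD and 118, 165 and 93.5 TPM in HFD livers (-1.69 ± 0.21, limma adjusted p = 9.56e-05). Hmox1, the heme-degrading heme oxygenase, was at 43.3, 18.9 and 24.6 TPM in RD and 4.09, 8.27 and 5.19 TPM in HFD livers (-2.09 ± 0.35, limma adjusted p = 0.00103). Ugdh, which makes UDP-glucuronate for conjugation, was at 126, 96.4 and 132 TPM in RD and 59.02, 68.4 and 31.2 TPM in HFD livers (-1.21 ± 0.22, limma adjusted p = 0.00186). For each of these 3 genes even the lowest RD library exceeded the highest HFD library. Txnrd1, thioredoxin reductase, fell less but evenly, from 65.8, 56.1 and 60.9 to 38.02, 34.7 and 32.1 TPM (-0.78 ± 0.11, limma adjusted p = 3.19e-04). The 9 genes with stable calls were Ephx1, Gsta1, Gsta2, Gstm1, Gstm3, Gstm4, Hmox1, Txnrd1 and Ugdh. All 9 fell, and 2.9% of all tested genes had a stable call lower. The NADPH-producing malic enzyme gene Me1 was at 112, 78.2 and 85.1 TPM in RD and 28.5, 71.5 and 17.3 TPM in HFD livers (-1.44 ± 0.38, limma adjusted p = 0.0159). Its HFD replicate 2 stayed close to the RD libraries, and the call was lost without RD LPKO replicate 1 or HFD LPKO replicate 3 (adjusted p up to 0.111). The quinone reductase gene Nqo1 (-0.83 ± 0.25) and the sulfiredoxin gene Srxn1 (-0.91 ± 0.28) lost their calls after scaling (limma adjusted p = 0.0843 and 0.12) and without RD LPKO replicate 1, RD LPKO replicate 3, HFD LPKO replicate 1 or HFD LPKO replicate 3. Gclc (-0.46 ± 0.195, limma adjusted p = 0.103) and Gclm (-0.43 ± 0.16, limma adjusted p = 0.0657), the subunits of the enzyme that limits glutathione synthesis, were not called. Nfe2l2, the gene of NRF2, was itself lower, at 44.5, 33.2 and 40.1 TPM in RD and 22.8, 22.6 and 20.4 TPM in HFD livers (-0.804 ± 0.19, limma adjusted p = 0.00961, scaled -0.56, adjusted p = 0.0102). That call was lost without RD LPKO replicate 1 (adjusted p = 0.0574). Keap1 was at 17.8 ± 0.552 and 12.8 ± 2.02 TPM and was not called after scaling (limma adjusted p = 0.25). Nfe2l2 and Keap1 were chosen after their values were seen.

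**Figure D2:**
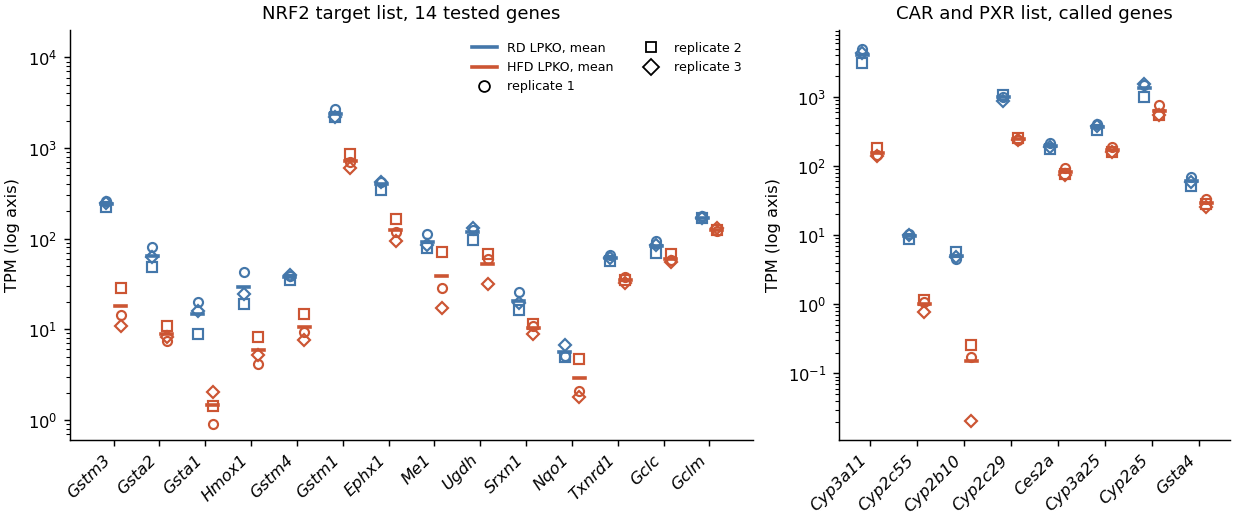
TPM on a log axis for the 14 tested NRF2 list genes (left) and the 8 called genes of the CAR and PXR list (right) in RD LPKO and HFD LPKO libraries. Open symbols are replicates 1 to 3 and bars are means, and in each of these genes the HFD libraries lie below all RD libraries.

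Cyp3a11, the main drug-metabolising cytochrome P450 of the Cyp3a family in mouse liver, showed the largest fall on log2(TPM + 1) among called genes with an established symbol. It was at 4977, 3065 and 4322 TPM in RD LPKO and 143, 185 and 138 TPM in HFD LPKO libraries, a 26.5-fold lower mean (-4.704 ± 0.52, limma adjusted p = 2.91e-05, scaled -4.45). All 3 HFD libraries were low and close together. As a ratio of mean TPM, the falls of the weakly expressed Cyp2b10 and Hcar2, given below, were larger. Of 19 tested genes of the CAR and PXR list 8 were called lower and none higher, where 17.3% and 0.777% of all tested genes were. After scaling 6 were lower, where 3.7% were, and Por, the P450 reductase, was higher (0.79, limma adjusted p = 0.0318). The median change of the list, -0.17 or 0.072 scaled, was near that of all genes, and the other 11 members were not called lower. The phenobarbital-inducible Cyp2b10 went from 4.596, 5.77 and 4.76 to 0.171, 0.256 and 0.0203 TPM (-2.395 ± 0.44, limma adjusted p = 0.00212), a change that the added 1 TPM understates most. Cyp2c55 went from 10.4, 8.87 and 9.998 to 1.08, 1.15 and 0.778 TPM (-2.43 ± 0.21, limma adjusted p = 8.59e-07). Cyp2c29, a far more abundant P450, went from 1006, 1083 and 878 to 239.7, 254 and 241 TPM (-2.005 ± 0.29, limma adjusted p = 3.41e-04). In none of these 3 genes did the groups overlap, and the HFD libraries of Cyp2b10 were all under 1 TPM and spread widely. Cyp3a25 (-1.14 ± 0.23), the carboxylesterase gene Ces2a (-1.24 ± 0.18) and Cyp3a59 (-2.03 ± 0.35), which was on no list, also had stable calls. Cyp2a5 (-1.11 ± 0.35) and Gsta4 (-1.02 ± 0.298) were not called after scaling (limma adjusted p = 0.103 and 0.0609) or without RD LPKO replicate 1, RD LPKO replicate 3, HFD LPKO replicate 2 or HFD LPKO replicate 3. The receptor genes were not called: Nr1i2, which encodes PXR, was at 23.9 ± 1.32 and 21.6 ± 5.06 TPM (limma adjusted p = 0.445) and Nr1i3, which encodes CAR, at 93.9 ± 7.4 and 115 ± 21.2 TPM (limma adjusted p = 0.57). A core motif of nuclear receptor binding, AGGTCA on either strand, occurred in 6 of 17 genes of this list with a RefSeq promoter, or 35.3%, and in 18.1% of all genes, and it too was picked among the 10 motifs. The Cyp3a11 stretch with its single match in capitals lies at chr5:145879951-145880076 (minus strand) of GRCm38.p6. It is shown because of the gene's large fall on log2(TPM + 1).
Cyp3a11: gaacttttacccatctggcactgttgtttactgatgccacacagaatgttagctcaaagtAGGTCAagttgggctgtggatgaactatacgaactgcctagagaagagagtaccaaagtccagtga

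Among 20 genes of glutathione, sulfate and glucuronide conjugation outside the NRF2 list, 8 were called lower and none higher, where 17.3% and 0.777% of all tested genes were, and after scaling 6 lower and 2 higher, where 3.7% and 2.75% were. Stable calls were those of Gstm2 (-1.52 ± 0.27), Gstm6 (-0.95 ± 0.19), Gstm7 (-0.71 ± 0.15), Gsto1 (-0.62 ± 0.14), Gstp2 (-1.28 ± 0.197) and the glucuronosyltransferase gene Ugt2b5 (-0.98 ± 0.14). Among all tested genes 2.9% had a stable call lower. Gstm2 was at 149, 166 and 144 TPM in RD and 50.9, 85.1 and 33.3 TPM in HFD livers (limma adjusted p = 0.0016), and its HFD libraries spread most. Gstp1, at 1792 ± 259 and 848 ± 192 TPM, and Ugt2b36 were called lower on deposited TPM and not after scaling (limma adjusted p = 0.117 and 0.238). The 2 higher after scaling were Gstz1 (0.27) and the sulfotransferase gene Sult1b1 (0.71). Csad, whose enzyme makes the taurine used to conjugate bile acids, fell with a stable call from 264, 249.7 and 282 to 38.5, 62.5 and 47.3 TPM (-2.42 ± 0.22, limma adjusted p = 1.70e-06).

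The same genes were measured in the other genotypes. Cyp3a11 went from 1599 ± 1506 to 298 ± 50.8 TPM in WT livers (-2.03 ± 0.52) and from 4147 ± 531 to 80.4 ± 29.2 TPM in LFPKO livers (-5.74 ± 0.52). The LPKO change minus the WT change was -2.67 ± 0.73 (limma adjusted p = 0.188). Gstm3 had a change of -2.69 ± 0.31 in WT and -3.82 ± 0.31 in LFPKO livers, and its difference from WT was -1.12 ± 0.43 (limma adjusted p = 0.465). No gene of the NRF2, CAR and PXR or conjugation lists differed from WT or LFPKO with an adjusted p under 0.05. The NRF2 list had a median scaled change of -1.22 in WT, -1.56 in LFPKO and -1.29 in LFKO livers. A p that misses the threshold does not show that the genotypes respond alike.

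For 5 of 24 tested genes of cholesterol synthesis and uptake the diet change in LPKO livers differed from that in WT livers on deposited TPM. The other 19 did not pass that test. After scaling 8 of the 24 were called, where 50 of all 10551 genes were. No other of the 52 lists examined held a gene called in this comparison on deposited TPM. After scaling, the lists of lipid droplets and fatty acid uptake, PPARγ-linked genes, glycolysis and glycogen, and interferon response each held 1. In LPKO livers 9 of the 24 were called lower and none higher, where 17.3% and 0.777% of all genes were, and 4 lower after scaling, where 3.7% were. In WT livers all 24 were called lower, where 29.8% of all genes were, and 20 after scaling, where 3.53% were. The median change was -0.59 in LPKO and -1.73 in WT livers, and -0.34 and -1.37 scaled. The LPKO change minus the WT change was positive for all 24 genes, from 0.14 to 2.15 with a median of 1.01, while 62% of all tested genes had a positive difference with a median of 0.068. Of the 24, 5 were among the 18 genes called in that comparison, which is 0.171% of those tested. RefSeq promoters were found for 16 tested members, and the CCAAT box, CCAAT on either strand, occurred in all 16 and in 41.1% of all genes. This box was picked among the 10 motifs after the matches were counted; the core of the sterol regulatory element, TCACNCCAC on either strand, occurred in 1 of the 16, or 6.25%, and in 1.44% of all genes. Stretches from 2 of the 5 called genes are shown, Cyp51 at chr5:4104662-4104786 (minus strand) and Idi1 at chr13:8885501-8885655 (plus strand), with the matches in capitals (ATTGG is CCAAT on the other strand).
Cyp51: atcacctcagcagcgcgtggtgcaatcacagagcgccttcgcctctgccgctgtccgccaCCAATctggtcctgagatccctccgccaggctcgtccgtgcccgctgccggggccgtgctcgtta
Idi1: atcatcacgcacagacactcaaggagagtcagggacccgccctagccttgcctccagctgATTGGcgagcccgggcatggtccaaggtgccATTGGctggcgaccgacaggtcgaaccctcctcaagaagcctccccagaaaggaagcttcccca

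Cyp51, the lanosterol demethylase, was at 96.2, 73.05 and 112 TPM in RD LPKO and 79.9, 85.6 and 59.8 TPM in HFD LPKO livers, and the 2 groups overlapped (-0.31 ± 0.18, limma adjusted p = 0.223). In WT livers it went from 42.5, 76.3 and 55.3 to 13.2, 11.2 and 10.5 TPM with no overlap (-2.19 ± 0.18). The difference between these changes was 1.88 ± 0.26 (limma adjusted p = 0.00538). Nsdhl, which acts further along the same pathway, was at 74.7, 74.1 and 99.8 TPM in RD and 60.3, 89.6 and 46.6 TPM in HFD LPKO libraries. In WT libraries it was at 40.8, 67 and 53.3 TPM on RD and 10.99, 9.16 and 12.8 TPM on HFD (difference 1.801 ± 0.27, limma adjusted p = 0.00724). HFD LPKO replicate 2 was within the RD range and the other HFD LPKO libraries were below it. The calls of Cyp51 and Nsdhl held with each of the 12 LPKO and WT libraries left out in turn. Fdps, which makes farnesyl diphosphate, was at 336, 340.1 and 442 TPM in RD and 225, 314 and 151 TPM in HFD LPKO libraries. In WT libraries it was at 153, 334 and 199 TPM on RD and 37.5, 20.5 and 29.5 TPM on HFD. Its difference of 2.15 ± 0.36 (limma adjusted p = 0.0133) was not called without RD LPKO replicate 1, HFD WT replicate 2 or HFD LPKO replicate 1 (adjusted p up to 0.0587). Idi1, the isopentenyl diphosphate isomerase (1.96 ± 0.36, limma adjusted p = 0.0323), and Sqle, the squalene epoxidase (1.88 ± 0.36, limma adjusted p = 0.0411), were called with only 4 and 2 of the 12 libraries left out (adjusted p up to 0.109 and 0.131).

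**Figure D3:**
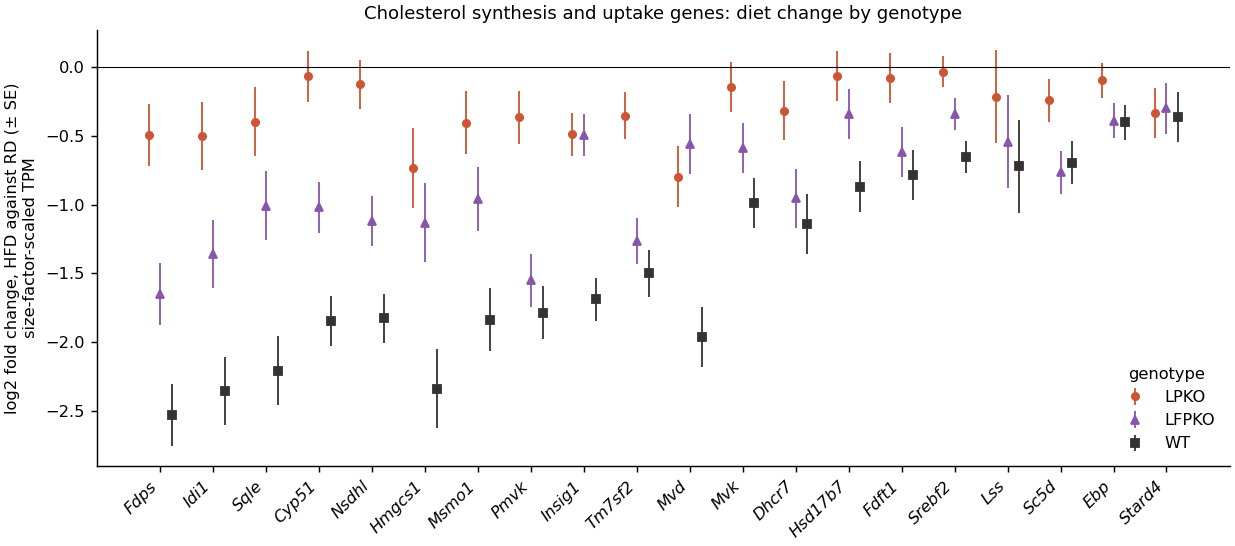
Log2 fold change of HFD against RD ± SE on size-factor-scaled TPM (y axis) for 20 of the 24 tested cholesterol synthesis and uptake genes (x axis, ordered by the LPKO minus WT difference on deposited TPM), in LPKO, LFPKO and WT livers. At the left end Fdps changed by -2.53 in WT and -0.49 in LPKO livers, and most LFPKO changes lie between those of the other genotypes.

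Within LPKO livers, Mvd, mevalonate diphosphate decarboxylase, fell with a stable call from 20.1, 16.2 and 20.2 to 8.71, 9.92 and 7.57 TPM (-1.03 ± 0.23, limma adjusted p = 0.0061). Hmgcs1, Insig1, Tm7sf2, Fdps and Idi1 were called lower on deposited TPM and not after scaling. Srebf2, the gene of SREBP-2, was at 18.2 ± 1.16 and 15.3 ± 3.99 TPM in LPKO (limma adjusted p = 0.222) and 16.8 ± 1.16 and 7.97 ± 1.05 TPM in WT livers (limma adjusted p = 4.08e-04), and the difference of these changes, 0.72 ± 0.22, did not pass the test (limma adjusted p = 0.273). Among genes of cholesterol export, Abcg8, which pairs with Abcg5 in the biliary sterol transporter, rose from 21.2, 20.2 and 21.3 to 36.5, 34.9 and 33.3 TPM with a stable call (0.71 ± 0.16, limma adjusted p = 0.00678). Abcg5 was called after scaling (0.79, limma adjusted p = 0.00749). Abca1, the exporter that loads apolipoprotein A-I, was called higher (0.51 ± 0.16, limma adjusted p = 0.0338), and that call held with 1 of the 6 libraries left out.

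In LFPKO livers, which were targeted for both factors, the median sterol change lay between those of LPKO and WT livers. There 21 of the 24 genes were called lower, where 24.9% of all genes were, and 17 after scaling, where 8.38% were, with a median of -1.11. The LPKO minus LFPKO difference was positive for 21 of the 24. No gene of the 10551 passed the limma adjusted p in that comparison on deposited or scaled TPM, where 577 and 961 genes had an unadjusted p under 0.05. In LFKO livers 17 of the 24 were lower, with a median of -0.77, where 8.34% of all genes were, and 1 gene in all, Cyp2c69, outside this list and named after its value was seen, differed from LPKO (0.00948% of those tested), where 604 had an unadjusted p under 0.05.

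PPARα is known to drive many genes of fatty acid oxidation. Of 19 such genes of the mitochondrion 2 were called higher and 2 lower, where 0.777% and 17.3% of all tested genes were, and after scaling 2 were higher and none lower, where 2.75% and 3.7% were. Acsl1, which activates long-chain fatty acids, rose from 158, 160.2 and 167 to 288, 267 and 228 TPM (0.68 ± 0.17, limma adjusted p = 0.0113), and that call was lost without RD LPKO replicate 1 (adjusted p = 0.05001). Acsm3, a medium-chain acyl-CoA synthetase, was at 46.7, 54.2 and 50.1 TPM in RD and 89.8, 74.98 and 56.03 TPM in HFD livers (0.52 ± 0.13, limma adjusted p = 0.013) and was not called without RD LPKO replicate 1 or HFD LPKO replicate 1 (adjusted p up to 0.0706). Etfdh (-0.48 ± 0.11) and Acadvl (-0.41 ± 0.13) were called lower on deposited TPM only. Cpt1a, the gate of mitochondrial import, was at 156 ± 14.6 and 142 ± 19.4 TPM (limma adjusted p = 0.386). Crot, the peroxisomal carnitine octanoyltransferase, fell from 209, 152 and 193 to 100.5, 100.1 and 87.8 TPM with a stable call (-0.92 ± 0.16, limma adjusted p = 0.00137). So did Slc16a1, a monocarboxylate and ketone body transporter, from 19.4, 16.2 and 19.2 to 10.6, 9.59 and 9.55 TPM (-0.82 ± 0.13, limma adjusted p = 6.31e-04). Of 18 other PPARα targets 1 was called higher and 3 lower, a share of lower calls near that of all genes, and after scaling 2 higher and none lower. Fabp2, an intestinal-type fatty acid binding protein, rose from 41.5, 33.2 and 40.5 to 91.4, 98.3 and 69.7 TPM with a stable call (1.14 ± 0.201, limma adjusted p = 0.00146). It was at 46.96 ± 0.9103 and 50.2 ± 10.4 TPM in WT livers, and the difference from WT was 1.07 ± 0.28 (limma adjusted p = 0.174). The falls of Ctsz, Pdk4 and Retsat were lost after scaling. Cyp4a14 was at 16.9, 8.81 and 38.6 TPM in RD and 10.1, 8.76 and 2.08 TPM in HFD LPKO libraries (limma adjusted p = 0.141), and in WT livers it fell from 526 ± 263 to 16.1 ± 12.1 TPM (-5.197 ± 0.7, limma adjusted p = 8.27e-05). The difference of its changes, 3.74 ± 0.99, did not pass the test (limma adjusted p = 0.174). Scd1, the main stearoyl-CoA desaturase, was at 1291, 1055 and 1180.4 TPM in RD and 369, 1569 and 389 TPM in HFD livers. HFD LPKO replicate 2 was high and the other HFD libraries low, and the gene was not called (limma adjusted p = 0.306). In the list of fatty acid synthesis, Tkfc, the triokinase of fructose breakdown, had the only stable call, a fall from 258, 232 and 208 to 126, 164 and 102 TPM (-0.85 ± 0.19, limma adjusted p = 0.00634). That is 1 of 15 tested members, where 2.9% of all tested genes had a stable call lower.

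Fewer genes were called higher than lower. Apart from those picked by their size in TPM, the rises described here are of genes with an established symbol and a mean of at least 5 TPM in the HFD libraries. Slc22a7, the organic anion transporter OAT2, went from 11.5, 19.1 and 10.9 to 40.1, 37.5 and 40.9 TPM (1.49 ± 0.23, limma adjusted p = 5.74e-04, scaled 1.73). Serpine2, a protease inhibitor, went from 5.67, 8.63 and 4.79 to 16.1, 15.9 and 23.99 TPM (1.43 ± 0.25, limma adjusted p = 0.00146). Fgf1, a fibroblast growth factor, went from 16.9, 26.4 and 16.7 to 47.7, 50.4 and 45.6 TPM (1.25 ± 0.203, limma adjusted p = 8.61e-04). In each of these 3 genes RD LPKO replicate 2 was the highest RD library and still below all HFD libraries. The steroid dehydrogenase genes Hsd3b2 (0.99 ± 0.18, limma adjusted p = 0.00195) and Hsd3b3 (0.73 ± 0.16, limma adjusted p = 0.00534) and the serpin gene Serpina3m (0.92 ± 0.195, limma adjusted p = 0.00481) rose as well. All 6 had stable calls. Apoa4, an apolipoprotein of triglyceride-rich particles, went from 261, 155 and 137 to 384, 612 and 324 TPM (1.26 ± 0.32, limma adjusted p = 0.0134), and was not called without RD LPKO replicate 3 or HFD LPKO replicate 2 (adjusted p up to 0.0664). Chac1, which degrades glutathione, went from 1.62, 2.74 and 1.77 to 9.39, 5.94 and 3.405 TPM (1.18 ± 0.32, limma adjusted p = 0.0175) and held its call with 3 of the 6 libraries left out. Map2k6 (0.93 ± 0.27) held with 2, and Mup21 (1.42 ± 0.44), Dsg1c (1.33 ± 0.42), Lcn2 (1.08 ± 0.37), Col27a1 (0.99 ± 0.34) and Cep85l (0.93 ± 0.29) with 1 each. Lcn2 also lost its call after scaling (limma adjusted p = 0.0593). By size in TPM, the leading rises were mitochondrial: mt-Atp8 from 29218 ± 1588 to 40033 ± 1509 TPM (0.46 ± 0.15, limma adjusted p = 0.0441), mt-Nd3 (0.71 ± 0.21) and mt-Nd5 (0.53 ± 0.16), with calls that held with 0, 2 and 2 of the 6 libraries left out. Eif4ebp3 (0.94 ± 0.32) and Gm12338 (0.48 ± 0.15), also among the 10 leading rises in TPM, held with 2 each, and Eif4ebp3 was not called after scaling (limma adjusted p = 0.0515).

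**Figure D4:**
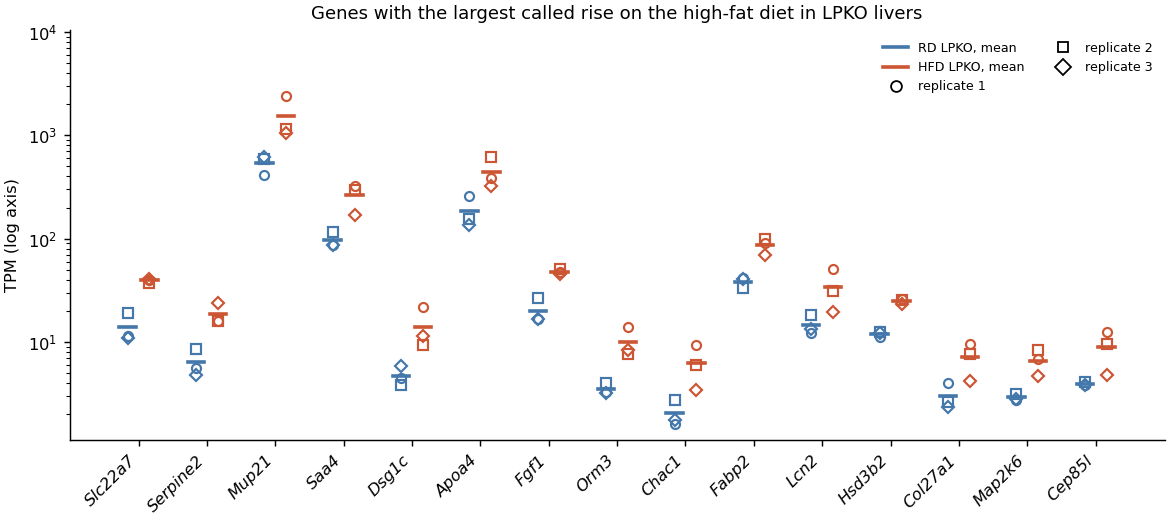
TPM on a log axis for the 15 genes with the largest called rise among those with an established symbol, a mean of at least 5 TPM in the HFD libraries and groups that did not overlap, in RD LPKO and HFD LPKO libraries, ordered by log2 fold change. Open symbols are replicates 1 to 3 and bars are means, and the HFD libraries lie above all RD libraries in each gene.

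Acute phase proteins, which the liver secretes in inflammation are a further list. Of 19 tested, 3 were called higher and 2 lower, where 0.777% and 17.3% of all tested genes were, and 3 higher and none lower after scaling, where 2.75% and 3.7% were. Saa4 rose from 87.8, 115 and 86.9 to 323, 296 and 170.3 TPM (1.396 ± 0.27, limma adjusted p = 0.0031) and Orm3 from 3.26, 4.02 and 3.18 to 13.9, 7.696 and 8.29 TPM (1.25 ± 0.18, limma adjusted p = 4.22e-04), both with stable calls. Orm1, the most abundant orosomucoid here, was at 1358 ± 141 and 938 ± 114 TPM, and the heme carrier gene Hpx at 3821 ± 575 and 2499.6 ± 182 TPM; neither fall was called after scaling (limma adjusted p = 0.483 and 0.191). Saa1, at 61.8, 67.9 and 53.9 TPM in RD and 282, 148 and 194 TPM in HFD livers, had a change of 1.704 ± 0.65 and did not pass the test (limma adjusted p = 0.0715). Of 18 interferon response genes, Ifit1 was called higher (0.61 ± 0.19) and the tetherin gene Bst2 lower, from 152, 142 and 135 to 77.8, 79.3 and 70.3 TPM (-0.91 ± 0.15, limma adjusted p = 9.76e-04), and after scaling, where 2.75% of all genes were called higher, 5 were higher and Bst2 stayed lower. The call of Bst2 was stable and that of Ifit1 held with 1 of the 6 libraries left out.

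Single genes of several other groups fell. Among 16 bile acid genes 5 were called lower, where 17.3% of all tested genes were, and 2 lower and 2 higher after scaling, where 3.7% and 2.75% were. Abcb4, which moves phospholipid into bile, fell with a stable call from 126, 83.9 and 106 to 46.7, 54.3 and 39.8 TPM (-1.15 ± 0.18, limma adjusted p = 6.31e-04). Abcc3, a basolateral export pump, was at 117, 85.05 and 107 TPM in RD and 58.1, 58.03 and 30.4 TPM in HFD livers (-1.11 ± 0.31, limma adjusted p = 0.02) and lost its call without RD LPKO replicate 1, RD LPKO replicate 3 or HFD LPKO replicate 3. Cyp8b1, Abcb11 and Hsd3b7 were not called after scaling. Cyp7a1, the rate-limiting enzyme of bile acid synthesis, was at 14.8, 68.5 and 37.02 TPM in RD and 92.4, 76.9 and 22.1 TPM in HFD livers and was not called (limma adjusted p = 0.476). Of 17 clock genes Nr1d1, the repressor REV-ERBα, had the only stable call, where 2.9% of all tested genes had a stable call lower. It went from 49.6, 34.4 and 40.7 to 9.36, 10.5 and 21.1 TPM (-1.61 ± 0.31, limma adjusted p = 0.0026), and HFD LPKO replicate 3 was the highest of the HFD libraries. No source used here gives the time of tissue collection. In the integrated stress response list Trib3 fell from 10.2, 7.05 and 8.33 to 2.35, 2.17 and 2.98 TPM with a stable call (-1.44 ± 0.32, limma adjusted p = 0.00591), and Asns was not called without RD LPKO replicate 3 (adjusted p = 0.0555), while Chac1 rose as given above. Inhbe, a hepatic inhibin chain, fell from 29.2, 13.5 and 20 to 6.68, 6.39 and 7.91 TPM with a stable call (-1.395 ± 0.28, limma adjusted p = 0.00369). Ftl1, the ferritin light chain, fell from 6070.3, 5404 and 6394 to 2872, 3554 and 2459.7 TPM with a stable call (-1.02 ± 0.19, limma adjusted p = 0.00212). Of the other abundant transcripts, the falls of Trf and Ass1 were not called after scaling.

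Of 9 tested immediate early genes 3 were called lower, where 17.3% of all tested genes were, and 1 after scaling, where 3.7% were. In LFKO livers 5 of the 9 were called lower and 4 after scaling, where 8.34% and 6.39% of all genes were. In LFPKO livers 3 and 1 were, and in WT livers none in either version. The 3 genes given next are not meant as the 3 called members of the list. Their LPKO falls were carried by 2 RD libraries. Nr4a1 was at 21.6, 1.29 and 15.1 TPM in RD and 0.621, 1.21 and 0.647 TPM in HFD LPKO livers, Jun at 33.3, 14.2 and 29.2 TPM in RD and 9.304, 8.6 and 9.35 TPM in HFD livers and Atf3 at 8.23, 1.73 and 5.68 TPM in RD and 1.02, 1.51 and 0.9896 TPM in HFD livers. In all 3 genes RD LPKO replicates 1 and 3 were high and replicate 2 was the RD library nearest to the HFD libraries. Atf3 (-1.35 ± 0.33) and Jun (-1.31 ± 0.34) were not called without RD LPKO replicate 1 or 3 (adjusted p up to 0.0781 and 0.0867), and Nr4a1 (-2.38 ± 0.74) and Jun were not called after scaling (limma adjusted p = 0.0808 and 0.0563). Jund, also an immediate early gene, was called lower (-0.7029, limma adjusted p = 0.0252). That call was lost after scaling (limma adjusted p = 0.1565) and without replicate 1 or 3 of the RD or HFD LPKO libraries. Ccn1, a matricellular protein gene, was at 27.99, 4.81 and 19.7 TPM in RD and 2.45, 2.47 and 2.99 TPM in HFD livers and Hcar2, a receptor for β-hydroxybutyrate, at 7.72, 1.59 and 7.25 TPM in RD and 0.203, 0.254 and 0.121 TPM in HFD livers. Both had the same low RD replicate 2 and stable calls (-2.06 ± 0.397 and -2.26 ± 0.35). Tubb2a, a β-tubulin gene, was at 57.8, 14.2 and 24.3 TPM in RD and 3.397, 11.9 and 3.14 TPM in HFD livers (-2.19 ± 0.47, limma adjusted p = 0.00515), and Raet1d, a ligand of the receptor NKG2D, at 7.01, 5.04 and 9.86 TPM in RD and 0.333, 1.24 and 0.505 TPM in HFD livers (-2.29 ± 0.35, limma adjusted p = 5.37e-04). Their calls were stable too.

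Outside sterol synthesis, 9 named genes had a diet change that differed from that of WT livers, in either direction. Nat8, an N-acetyltransferase gene, was at 8.39, 12.2 and 6.64 TPM in RD and 6.104, 13.4 and 8.3 TPM in HFD LPKO libraries. In WT libraries it was at 11.6, 20.97 and 15.2 TPM on RD and 2.08, 1.9 and 3.99 TPM on HFD. Aqp4, a water channel, was at 2.51, 2.75 and 2.63 TPM in RD and 6.61, 4.62 and 4.62 TPM in HFD LPKO libraries. In WT libraries it was at 1.99, 4.71 and 5.15 TPM on RD and 0.581, 0.862 and 0.811 TPM on HFD. In both genes the HFD WT libraries lay below all RD WT libraries, the LPKO groups of Nat8 overlapped and the HFD LPKO libraries of Aqp4 lay above all RD LPKO libraries. Mmp15, a membrane-type matrix metalloproteinase gene, was at 44.2, 28.1 and 36.4 TPM in RD and 10.9, 14.7 and 12.4 TPM in HFD LPKO libraries. In WT libraries it was at 8.54, 11.3 and 11.5 TPM on RD and 13.5, 12.8 and 12.4 TPM on HFD. Cd276, an immune checkpoint ligand, was at 7.24, 4.77 and 6.899 TPM in RD and 1.31, 1.64 and 1.61 TPM in HFD LPKO libraries. In WT libraries it was at 1.59, 1.82 and 1.82 TPM on RD and 2.36, 1.26 and 2.68 TPM on HFD. For Mmp15 and Cd276 the RD LPKO libraries stood above the other groups, and HFD LPKO livers were near WT levels. In LFPKO livers the changes were -1.46 ± 0.204 for Mmp15 and -1.39 ± 0.19 for Cd276. Fpgs, which adds glutamates to folate, changed by 0.44 ± 0.18 in LPKO and -0.84 ± 0.18 in WT livers. For the transglutaminase gene Tgm1, the chaperone gene Fkbp11 and the adhesion gene Nectin2 the HFD LPKO libraries also lay below all RD LPKO libraries, as in 39.8% of all tested genes. Means were 17.4 ± 1.45, 28.3 ± 1.99 and 26.1 ± 3.89 TPM in RD LPKO and 6.81 ± 2.104, 16.3 ± 0.655 and 14.8 ± 1.19 TPM in HFD LPKO livers. Their LPKO changes were -1.27, -0.76 and -0.77, and the fall of Fkbp11 was not called after scaling (limma adjusted p = 0.13). The LPKO minus WT differences were larger, at -1.62, -1.31 and -1.05, so the fitted WT changes were positive. Ces4a, a carboxylesterase gene, was in WT livers at 0.368 ± 0.0326 TPM on RD and 8.03 ± 3.43 TPM on HFD and stayed under 1 TPM in all LPKO libraries.

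Across the 10551 genes, the scaled LPKO diet change had a Pearson correlation of 0.488 with that of WT livers, 0.555 with LFPKO and 0.646 with LFKO livers. These comparisons share no libraries, the correlation is across genes, which are not independent replicates, and it is given as a description. Of the 390 genes called lower in LPKO livers after scaling, 83 were also called lower in WT (21.3% of the LPKO and 22.3% of the WT calls), 216 in LFPKO (55.4% and 24.4%) and 188 in LFKO livers (48.2% and 27.9%). Calls lower made up 3.53%, 8.38% and 6.39% of all tested genes in these 3 genotypes. Of the 290 called higher, 96 were also called higher in WT (33.1% and 20.5%), 116 in LFPKO (40% and 23.2%) and 119 in LFKO livers (41% and 28.7%), where calls higher made up 4.44%, 4.74% and 3.92% of all tested genes. Called the opposite way in WT livers were 3 of the 290 and 3 of the 390. The median of the NRF2 list was negative in all 4 genotypes, as the plot of list medians shows, while the sterol list was lowest in WT and highest in LPKO livers.

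**Figure D5:**
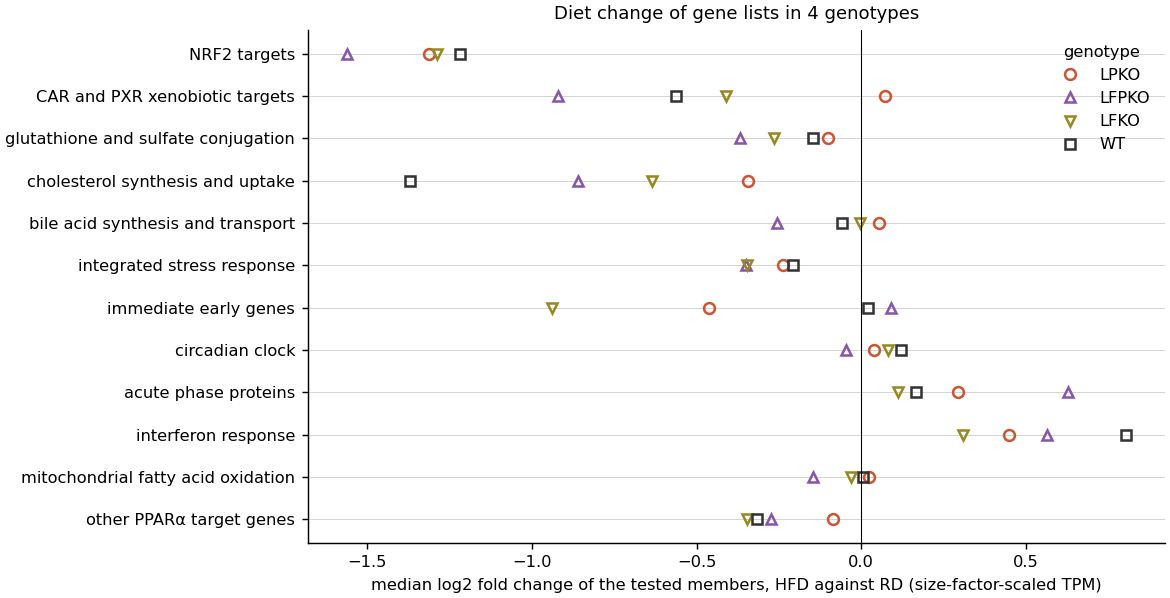
Median log2 fold change of HFD against RD on size-factor-scaled TPM (x axis) of the tested members of 12 gene lists (y axis) in LPKO, LFPKO, LFKO and WT livers. For the NRF2 list all 4 medians lie between -1.56 and -1.22, and for the cholesterol synthesis and uptake list they run from -1.37 in WT to -0.34 in LPKO livers.

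The livers held hepatocyte transcripts in all 6 libraries, with a summed level of 7 markers between 51490 and 71168 TPM. The sum was lowest in HFD LPKO replicate 3. Of these 7 markers none was called on deposited TPM, where 0.777% of all tested genes were called higher and 17.3% lower. After scaling 2 were called higher and none lower, where 2.75% and 3.7% of all tested genes were. None of the 10 Kupffer cell, 7 endothelial, 6 stellate, 2 cholangiocyte or 5 other leukocyte markers tested was called by limma in either version. The shares of all tested genes are those given for the hepatocyte markers. Of these 30 genes 0 had an unadjusted p under 0.05 on deposited TPM and 1 after scaling. Of all 10551 genes 3745 and 2322 did. Summed Kupffer cell markers ranged from 78.7 to 112 TPM in RD and from 59.9 to 187 TPM in HFD LPKO livers, and adipocyte markers were all under the level tested, at most 0.489 TPM in sum.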

How the data were processed

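Per the labels' protocols, snap-frozen mouse liver was extracted with Trizol, and libraries were made with the TruSeq Stranded mRNA kit. The authors deposited 1 table of gene-level TPM values for 24 libraries. Per the submitters' processing notes, kallisto was used with GRCm38 and mm10; the version and settings are not stated in the sources used here. TPM keeps no read depth, so depth is unknown and no counting interval is given. Of 34945 named genes, 10551 had a mean TPM of at least 1 and were tested. Using R 4.3.3, limma 3.58.1 was fitted to log2(TPM + 1) with a mean for each of the 8 groups over all 24 libraries (16 residual degrees of freedom, trended empirical Bayes), and p-values were two-sided and Benjamini-Hochberg adjusted over all tested genes. Differences between diet responses were interaction contrasts in the same fit. The script was tested on simulated data. Alternatives were scaling by median-of-ratios size factors, dropping the Mup and mitochondrial genes, fitting the compared groups alone, omitting each library in turn, the replicate number as a block, a filter at 5 TPM or none, and adding 0.1 in place of 1. Named genes were Ppara and Foxo1, the 15 largest called changes each way without overlap of groups and at least 5 TPM, the 10 largest called differences in TPM each way, the 8 largest called differences between diet responses each way, and called, leading or opposing members of the lists described; others are marked as chosen after their values were seen. The genes, the 52 lists and these rules were chosen with earlier results of these data known. Some list members are counted but not reported singly here. Promoters come from RefSeq on GRCm38.p6. Figures were drawn with Python 3.11.15 and matplotlib 3.10.9.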

Additional observations from a re-analysis of the deposited data

Results flagged for a closer look

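For 14 named genes the diet change in LPKO livers differed from that in WT livers by the limma interaction contrast, and each of the 14 was called after scaling too. Of these calls 9 were lost with no filter on low values, 8 with the replicate number as a block, 7 with the compared groups alone and 1 with a pseudocount of 0.1. The LPKO change minus the WT change, in log2 units, was positive for the sterol synthesis genes Fdps at 2.15 ± 0.36, Idi1 at 1.96 ± 0.36, Sqle at 1.88 ± 0.36, Cyp51 at 1.88 ± 0.26 and Nsdhl at 1.801 ± 0.27. It was also positive for Nat8 at 2.22 ± 0.42, Aqp4 at 2.21 ± 0.39 and Fpgs at 1.28 ± 0.25. It was negative for Ces4a at -2.17 ± 0.44, Mmp15 at -1.72 ± 0.29, Cd276 at -1.67 ± 0.27, Tgm1 at -1.62 ± 0.32, Fkbp11 at -1.31 ± 0.25 and Nectin2 at -1.05 ± 0.21. With each of the 12 LPKO and WT libraries left out in turn, Cyp51 and Nsdhl were called 12 times, Cd276 11, Mmp15 and Fdps 9, Nat8 and Aqp4 5, Idi1 4, Nectin2 3, Sqle, Fpgs, Ces4a and Fkbp11 2 and Tgm1 1 time.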

How the results depend on the processing

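TPM carries no depth, and 3 libraries per group limit precision. Of the named genes, 5 changed sign in LPKO livers under some alternative, and none of them was called on deposited TPM. After scaling and without Mup and mitochondrial genes, the change became 0.11 and 0.07036 for Cpt1a and 0.0724 and 0.03458 for Nr1i2. It became -0.0006259 for Nat8 with a pseudocount of 0.1. With 1 library left out, it ran from -0.06409 to 0.12 for Gstz1, -0.27 to 0.24 for Nat8, -0.28 to 0.03349 for Nr1i2 and -0.54 to 0.17 for Vnn1. For HFD against RD in LPKO livers, the 1910 calls became 680 after median-of-ratios scaling, 792 without Mup and mitochondrial genes, and 576 to 1697 with 1 library left out. The 18 calls for LPKO minus WT became 50 after scaling, 50 without Mup and mitochondrial genes, 10 with no filter, 14 with the compared groups alone and 3 to 60 with 1 library left out. For LPKO minus LFPKO, 0 calls became 1 with no filter and 0 to 10 with 1 library left out (10 without HFD LPKO replicate 3 and 3 without HFD LFPKO replicate 3). For LPKO minus LFKO, 1 call became 0 with a pseudocount of 0.1, 3 with no filter, 0 without Mup and mitochondrial genes, 5 with the compared groups alone and 1 to 4 with 1 library left out. With 1 library left out, the HFD minus RD difference ran from 1.2 to 7.98 percentage points for the Mup share and from 3.16 to 4.42 for the mitochondrial share. With the replicate number as a block, 1758 genes were called for HFD against RD in LPKO livers and 8 for LPKO minus WT. The deviations of same-numbered RD and HFD LPKO libraries from their own group means correlated across genes at -0.103, -0.23 and -0.00781. The numbers were therefore not taken to pair samples. The cause of these shifts was not tested.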

Other observations

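Several genes on no list, chosen after their values were seen, had stable calls. They were picked singly and stand for no group. Among them fell the glutathione reductase gene Gsr (-0.7 ± 0.12), the peroxiredoxin gene Prdx1 (-0.75 ± 0.12), the autophagy receptor gene Sqstm1 (-0.85 ± 0.17), Pir (-1.104 ± 0.19), the prostaglandin reductase gene Ptgr1 (-1.005 ± 0.16) and Mafk (-1.09 ± 0.22), whose product pairs with NRF2 on DNA. Besides Tubb2a, the tubulin genes Tubb4b (-1.18 ± 0.21), Tubb5 (-0.87 ± 0.19) and Tuba8 (-1.69 ± 0.15) fell. Dio1, which activates thyroid hormone (0.84 ± 0.14), and Spry4, a brake on growth factor signalling (1.23 ± 0.23), rose.

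Of 19 listed nuclear genes of the respiratory chain, 8 were called lower on deposited TPM and none after scaling, while 3 of 13 mitochondrial genome transcripts were called higher, and 6 after scaling. Outside that list, the respiratory chain genes Cyc1 (-0.55, scaled -0.29), Ndufb6 (-0.6, scaled -0.35) and Cox7a1 (-1.28, scaled -1.11) had stable calls lower. So did the ATP synthase gene Atp5j2 (-0.55, scaled -0.3). These genes were chosen after their values were seen, and 2.9% of all tested genes had a stable call lower. Of 16 genes of glycolysis and glycogen, 6 were called lower and 2 after scaling. Of all tested genes 17.3% were called lower and 0.777% higher, and 3.7% and 2.75% after scaling. None of 15 listed genes of the unfolded protein response was called by limma in either version, and 2 had an unadjusted p under 0.05 on deposited TPM and 0 after scaling. Eif2ak3, the gene of the unfolded protein sensor PERK, was not on that list and was chosen after its value was seen. It had a stable call lower (-0.99, limma adjusted p = 6.31e-04, scaled -0.77, adjusted p = 0.00346).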
